A study of Mus musculus with 67 samples.

Results

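The genes described here are 35 that serve ribosome biogenesis and transcription by RNA polymerase I, out of 55450 gene identifiers counted in each mouse liver library. They were taken as a list of names, and all 35 matched a gene of the GENCODE M21 annotation and passed the filter on low counts. By role they comprise 5 genes of the RNA polymerase I machinery, 6 nucleolar proteins, 3 box C/D and 4 box H/ACA proteins of small nucleolar ribonucleoproteins, 10 factors of the small subunit pathway and 7 of the large subunit pathway.

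Ribosomes are assembled in the nucleolus. RNA polymerase I transcribes the repeated ribosomal RNA genes into a long precursor, guide RNAs with their protein partners direct its chemical modification, and assembly factors cut and fold it into the precursors of the small and large subunits. The pathway is a main consumer of energy and amino acids in a growing cell and is known to be governed by mTORC1, the growth kinase complex that Sestrin2 restrains when leucine is scarce.

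The data are RNA sequencing counts from 67 livers, each from a separately numbered mouse, in 8 groups that differ in genotype, food and time. Wild-type (WT) mice were compared with mice titled DKO (Sestrin DKO in the study's design text and Sesn2 DKO in the genotype label), which in this report always carry that genotype whether fed control or leucine-free food; sex, age and strain are not given in the labels. The day 1 groups, fed for 24 hours, held 7 WT controls, 8 DKO controls, 12 WT leucine-free and 18 DKO leucine-free livers. The day 8 groups, fed for 8 days, held 5 WT controls, 5 DKO controls, 6 WT leucine-free and 6 DKO leucine-free livers. Library totals ran from 22814668 to 56916009 counts. Sesn1, the sestrin gene whose counts separate the genotypes, ranged from 9.24 to 22.2 CPM in the 30 WT livers and from 3.49 to 7.68 CPM in the 37 DKO livers. The median level of Sesn2, pooled over foods and days, was 12.9 CPM among WT and 17.4 CPM among DKO livers. On control food Sesn2 differed in DKO from WT livers by 0.06 (day 1) and 0.20 (day 8) on the log2 scale. Neither difference was called in edgeR (adjusted p = 0.999 and 0.963). On leucine-free food Sesn2 was higher in DKO livers by 0.72 at day 1 and by 0.72 at day 8 (edgeR, adjusted p = 0.000221 and 0.0250). CPM is the usual scale of counts relative to the library size, here after TMM scaling, and a gene is said to rise or fall only where its Benjamini-Hochberg adjusted p over the 16908 genes tested was under 0.05 in edgeR's quasi-likelihood test. The median log2 fold change of all tested genes lay between -0.01 and 0.02 over the 12 comparisons.

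The stretch upstream of a gene's start is where transcription factors of growth genes are known to bind, so 4 of these windows are shown for members that rose in DKO livers at day 8. They are the 4 such members with the largest rise among those that have a RefSeq window (GRCm38.p6) clear of annotated exons of the gene itself: Ncl (chr1:86359456-86359705, minus strand), Nolc1 (chr19:46075597-46075846, plus strand), Gar1 (chr3:129831397-129831646, minus strand) and Polr1a (chr6:71908803-71909052, plus strand). Each is the 250 bases before the start, read 5′ to 3′ on the gene's own strand. Capitals mark CCGGAAG, a motif of ETS family factors, and GGGCGG, the GC box, each on either strand. The Ncl window overlaps an exon of the long noncoding gene C130036L24Rik.
Ncl: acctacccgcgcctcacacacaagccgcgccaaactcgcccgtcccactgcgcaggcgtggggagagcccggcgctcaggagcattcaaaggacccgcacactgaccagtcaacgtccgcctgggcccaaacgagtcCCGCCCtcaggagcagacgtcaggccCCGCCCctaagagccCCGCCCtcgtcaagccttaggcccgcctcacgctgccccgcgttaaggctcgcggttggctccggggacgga
Nolc1: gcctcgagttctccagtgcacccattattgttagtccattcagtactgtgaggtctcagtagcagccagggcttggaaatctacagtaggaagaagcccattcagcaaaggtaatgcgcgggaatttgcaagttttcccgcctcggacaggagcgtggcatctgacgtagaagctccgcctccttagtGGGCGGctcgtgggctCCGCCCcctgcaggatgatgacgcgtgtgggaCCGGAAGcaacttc
Gar1: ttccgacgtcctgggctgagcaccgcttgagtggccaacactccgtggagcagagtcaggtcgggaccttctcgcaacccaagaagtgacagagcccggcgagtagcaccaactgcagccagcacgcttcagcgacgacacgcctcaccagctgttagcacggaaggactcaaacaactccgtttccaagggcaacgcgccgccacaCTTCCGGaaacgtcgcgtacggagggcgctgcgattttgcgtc
Polr1a: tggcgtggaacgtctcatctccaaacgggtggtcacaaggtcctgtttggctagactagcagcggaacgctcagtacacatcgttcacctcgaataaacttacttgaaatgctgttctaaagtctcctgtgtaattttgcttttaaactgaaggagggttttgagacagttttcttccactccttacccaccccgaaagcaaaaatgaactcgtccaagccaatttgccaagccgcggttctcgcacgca
Ncl carries 3 GC boxes and no ETS motif, Nolc1 carries 2 and 1, Gar1 carries 1 ETS motif alone, and Polr1a carries neither. Windows were found for 30 of the 35 members. CCGGAAG was present in 8 of the 30 (26.7%) and in 14.3% of the 11839 tested genes that have a window. GGGCGG was present in 18 of the 30 (60.0%) and in 59.6% of tested genes. The E-box CACGTG, the motif bound by Myc and its partners, was present in 2 of the 30 (6.67%, Nop2 and Rrn3) and in 9.32% of tested genes. These are letter matches and show no binding.

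Levels differed widely between members. On the scale of CPM per kilobase of exon, averaged over all 67 libraries, Npm1 was highest at 58.2, followed by Rrp1 at 26.9, Nop10 at 25.8 and Ncl at 20.0. Npm1 encodes nucleophosmin, an abundant nucleolar chaperone, and Ncl encodes nucleolin. Wdr12, a member of the PeBoW complex of large subunit assembly, was lowest at 1.21, next to Nop58 at 2.17 and Rrp12 at 2.49. This scale divides by all annotated exon bases of a gene, 11955 for Wdr12 and 10758 for Nop58, so the ranks depend on that length. In CPM alone Wdr12 was at 14.5 and Nop58 at 23.3, above Rrp12 at 10.8 and Gar1 at 8.52. Of the 35 members, 27 had their lowest group mean in the DKO controls of day 8, and 19 had their highest in the DKO leucine-free livers of day 8. Such counts were not made over all tested genes. The means of the latter group are raised for some members by 1 liver, replicate 6. Nhp2, for example, had a mean of 27.2 but a median of 19.0 CPM there, against a median of 23.7 CPM in DKO controls of day 1. The ratio of the highest to the lowest group mean was 2.13 for Rrp12, 1.99 for Npm1 and 1.88 for Nolc1.

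To set the livers side by side, the log2 CPM of each member was centred on its mean over 67 libraries and averaged over the 35 members. At day 8 this level was -0.29 ± 0.10 (SD, n = 5) in DKO controls, with a range of -0.40 to -0.15. It was 0.11 ± 0.20 (SD, n = 6) in DKO leucine-free livers, with a range of -0.03 to 0.50. The 2 DKO groups did not overlap. In WT livers at day 8 it was -0.08 ± 0.08 (n = 5) on control food and 0.03 ± 0.05 (n = 6) on leucine-free food, and the ranges overlapped between -0.02 and 0.02. At day 1 the levels ran from -0.37 to 0.33 over the 12 WT livers on leucine-free food and from -0.31 to 0.24 over the 18 DKO livers. One library stood apart: DKO leucine-free replicate 6 of day 8 had the value of 0.50, while the next of its group was at 0.15, and it held the highest value of its group for 22 of the 35 members. Without it the other 5 livers of the group were at 0.03 ± 0.07 (SD, n = 5), close to the 0.03 of WT leucine-free livers.

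**Figure D1:**
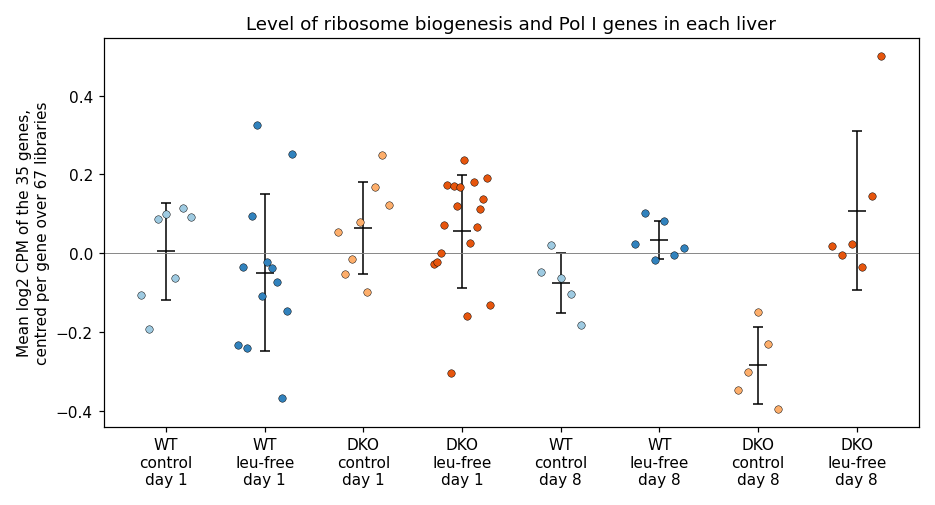
Mean log2 CPM of the 35 genes, centred per gene over the 67 libraries, for each liver (points) in the 8 groups of genotype, food and day on the x axis; the horizontal line is the group mean and the bars are the SD. The 5 DKO controls of day 8 lie between -0.40 and -0.15 and the 6 leucine-free livers between -0.03 and 0.50, with 1 liver well above the other 5.

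The comparison of leucine-free with control food in DKO livers at day 8 asked what 8 days without dietary leucine do in livers of the DKO genotype. Here 23 of the 35 members rose and none fell, with a median log2 fold change of 0.41, against 11.1% of all tested genes rising and 9.51% falling. No member had an unadjusted p under 0.05 in the falling direction in edgeR, and DESeq2 called 24 higher and 0 lower. Without replicate 6 of the leucine-free group 15 members rose, while 1671 genes rose over the whole table, and the median was 0.34. With all livers, every group by role took part. Risers were 4 of 5 genes of the RNA polymerase I machinery, 5 of 6 nucleolar proteins and 2 of 3 box C/D proteins. The others were 2 of 4 box H/ACA proteins, 6 of 10 small subunit factors and 4 of 7 large subunit factors. Without replicate 6 these counts were 3, 3, 0, 1, 5 and 3 in the same order, so no box C/D protein was then called. Of the 35 members, 14 were called under each of the 20 settings run for this comparison: Polr1a, Polr1c, Ubtf, Ncl, Npm1, Nolc1, Gar1, Nop14, Rrp12, Tsr1, Ltv1, Nop16, Pes1 and Rrp1. The other 9 that rose were called in fewer: Polr1b, Ddx21 and Nhp2 in 18 of the 20, Mybbp1a, Fbl and Nop56 in 15, Wdr43 in 14, Nop2 in 13 and Rrp9 in 7. The SE and p of the main fit rest on a spread shared by all 8 groups. In an edgeR fit to only the groups compared, Nhp2, Mybbp1a, Fbl, Rrp9 and Nop2 were not called (adjusted p = 0.163, 0.154, 0.187, 0.0726 and 0.0532). Nop58 was called there (adjusted p = 0.0240), and Ncl and Npm1 had larger adjusted p of 0.0171 and 0.00125.

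**Figure D2:**
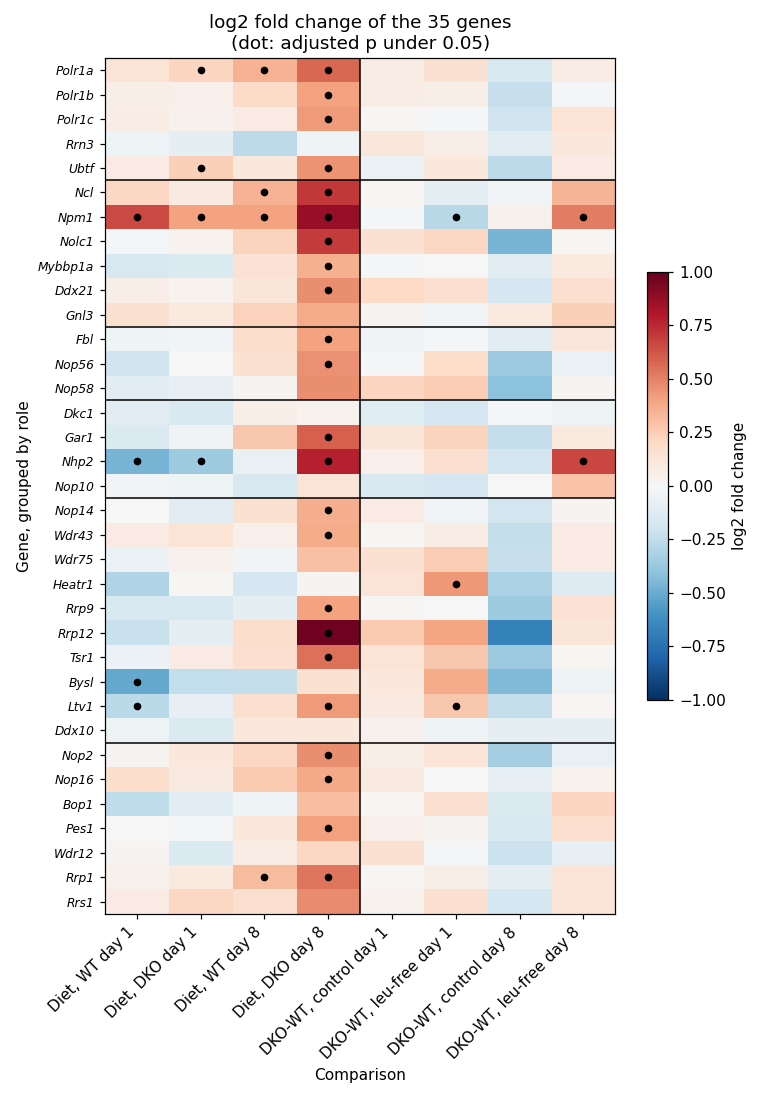
Log2 fold change (colour, red for higher and blue for lower) of each of the 35 genes (rows, grouped by role from RNA polymerase I at the top to large subunit factors at the bottom) in the 4 food comparisons and the 4 genotype comparisons (columns); a dot marks an adjusted p under 0.05. The column for food in DKO livers at day 8 holds 23 dots, all on rises, and the column for genotype on control food at day 8 holds none.

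In the RNA polymerase I machinery, Polr1a encodes the largest catalytic subunit. At day 8 the DKO control livers had 23.4, 23.8, 27.2, 26.4 and 20.8 CPM of Polr1a, and the 6 leucine-free livers ran from 31.5 through a median of 34.1 to 48.0 CPM. Every leucine-free DKO liver was above every control DKO liver. The log2 fold change was 0.57 ± 0.11 (SE, adjusted p = 7.19e-05), and 0.48 ± 0.11 without replicate 6. Ubtf, which encodes the factor that keeps ribosomal RNA genes open and recruits the polymerase, rose by 0.45 ± 0.10 (0.35 ± 0.10 without replicate 6). Polr1c, a subunit shared with RNA polymerase III, rose by 0.42 ± 0.08 (0.35 ± 0.08 without replicate 6), and Polr1b, the second-largest subunit, by 0.41 ± 0.13. The call of Polr1b was not made without replicate 6 (0.34 ± 0.13, adjusted p = 0.0519). Rrn3, the initiation factor that links the polymerase to its promoter and is known as a target of growth signals, was not called: it had 15.1 to 21.3 CPM on control and 14.7 to 20.9 CPM on leucine-free food, and its log2 fold change was -0.05 ± 0.12 (adjusted p = 0.837).

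Among the nucleolar proteins Npm1 gave the smallest adjusted p of the 35. DKO control livers at day 8 had 122, 135, 111, 135 and 132 CPM of Npm1, and leucine-free livers ran from 172 through a median of 231 to 320 CPM. The groups did not overlap, and the log2 fold change was 0.87 ± 0.11 (SE, adjusted p = 4.30e-09), or 0.76 ± 0.10 without replicate 6. Ncl stood at 160, 174, 150, 169 and 157 CPM in control livers and at 199, a median of 236 and 451 CPM in leucine-free livers. All leucine-free values of Ncl were higher than all control values, with replicate 6 far above the next liver at 249 CPM. Its log2 fold change was 0.71 ± 0.10 (adjusted p = 3.83e-07), and 0.49 ± 0.08 without replicate 6.

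Nolc1 encodes Nopp140, a nucleolar partner of small nucleolar ribonucleoproteins. Its DKO control values at day 8 were 18.8, 17.8, 32.5, 25.0 and 17.0 CPM, and its leucine-free values ran from 29.7 through a median of 34.4 to 46.3 CPM. The groups of Nolc1 overlapped through 1 control liver, at 32.5 CPM, and the log2 fold change was 0.70 ± 0.19 (adjusted p = 0.00518), or 0.67 ± 0.20 without replicate 6. Ddx21, an RNA helicase of the nucleolus, and Mybbp1a, a nucleolar repressor of transcription, rose by 0.46 ± 0.14 and 0.35 ± 0.11. Neither was called without replicate 6, where Ddx21 was at 0.38 ± 0.15 (adjusted p = 0.0589) and Mybbp1a at 0.16 ± 0.09 (adjusted p = 0.201). Gnl3, nucleostemin, had a log2 fold change of 0.37 ± 0.18 (adjusted p = 0.135).

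Box C/D proteins build the particles that methylate ribosomal RNA on its ribose. Fbl, fibrillarin, the methyltransferase itself, rose by 0.40 ± 0.13 with all 6 leucine-free livers, and stood at 0.18 ± 0.11 (adjusted p = 0.258) without replicate 6, which had 56.9 CPM. Nop56 rose by 0.46 ± 0.15, and had an adjusted p of 0.0510 without replicate 6. Nop58, its partner, had a log2 fold change of 0.47 ± 0.19 (adjusted p = 0.0747).

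Box H/ACA proteins build the particles that convert uridine to pseudouridine. Gar1 had 6.15, 6.04, 7.13, 6.64 and 5.84 CPM in DKO control livers at day 8, and from 7.64 through a median of 9.02 to 14.1 CPM in leucine-free livers. The groups of Gar1 did not overlap, and its log2 fold change was 0.60 ± 0.15 (adjusted p = 0.00257), or 0.46 ± 0.15 without replicate 6 (adjusted p = 0.0226). Nhp2 had 16.1, 16.1, 16.7, 15.1 and 15.4 CPM in control livers, and 18.2, 21.3, 17.3, 19.8, 18.2 and 68.7 CPM in leucine-free livers. All 6 leucine-free livers were above the controls, but 5 of them by a small step and replicate 6 by far. The log2 fold change of Nhp2 was 0.78 ± 0.18 (adjusted p = 0.000673) with all livers and 0.26 ± 0.10 (adjusted p = 0.0599) without replicate 6. In the fit to only the groups compared it was 0.79 ± 0.36 (adjusted p = 0.163). Dkc1, dyskerin, the pseudouridine synthase of these particles, was at 0.04 ± 0.09 and Nop10 at 0.13 ± 0.09, neither called.

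**Figure D3:**
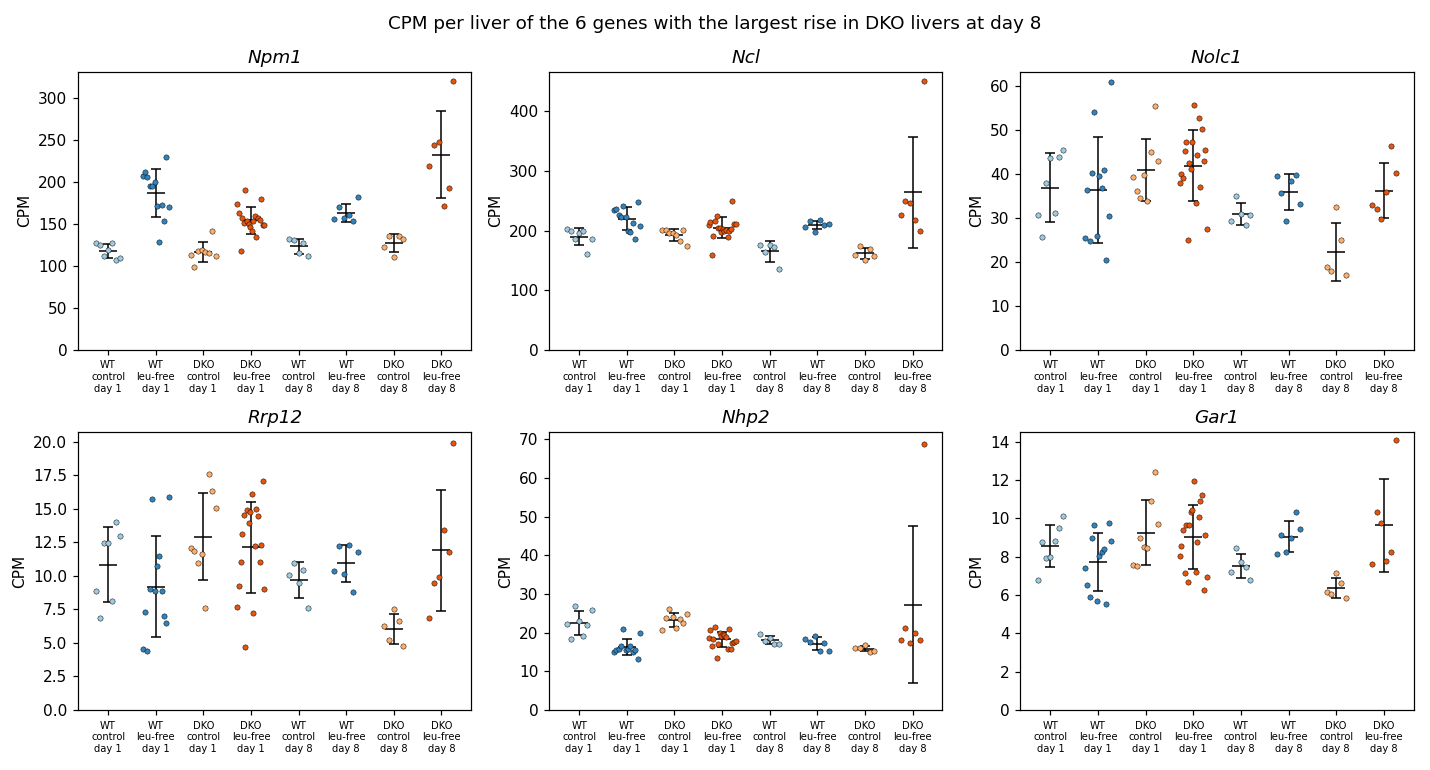
CPM of Npm1, Ncl, Nolc1, Rrp12, Nhp2 and Gar1 in each liver (points), by group on the x axis, with the group mean and SD as lines; the y axes start at 0 and differ between panels. Among DKO leucine-free livers of day 8 a single one reaches 451 CPM of Ncl and 68.7 CPM of Nhp2, and for Npm1 all 6 livers of that group (172 to 320 CPM) lie above the DKO controls of that day.

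In the small subunit pathway the largest rise of the 35 members was that of Rrp12, a factor needed for maturation and nuclear export of ribosomal subunits in yeast. Rrp12 had 6.23, 5.19, 7.51, 6.64 and 4.74 CPM in DKO control livers at day 8, and from 6.88 through a median of 10.8 to 19.9 CPM in leucine-free livers. Only the lowest leucine-free liver fell within the control range. The log2 fold change was 0.97 ± 0.26 (adjusted p = 0.00464), and 0.76 ± 0.26 without replicate 6. Tsr1, which acts in late maturation of the small subunit, rose by 0.55 ± 0.16 (0.47 ± 0.17 without replicate 6), and its groups did not overlap (13.6 to 19.6 against 19.9 to 31.4 CPM). Ltv1, another late factor, rose by 0.42 ± 0.12, and Wdr43 and Nop14, components of the early processome, rose by 0.37 ± 0.13 and 0.37 ± 0.09. Without replicate 6 these 3 stood at 0.35 ± 0.13, 0.37 ± 0.13 and 0.34 ± 0.09, each still called. Rrp9, a protein of the particle that guides early cleavage of the precursor, rose by 0.40 ± 0.15 with an adjusted p of 0.0495 that did not hold without replicate 6 (adjusted p = 0.122). Heatr1, a processome component that is also required for transcription of ribosomal RNA, was at 0.02 ± 0.18, Bysl at 0.15 ± 0.18, Ddx10 at 0.10 ± 0.09 and Wdr75 at 0.29 ± 0.16, none of them called.

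In the large subunit pathway Rrp1 had 77.8, 82.4, 74.9, 78.0 and 69.0 CPM in DKO control livers at day 8, and from 95.1 through a median of 110 to 128 CPM in leucine-free livers. The groups of Rrp1 did not overlap, and its log2 fold change was 0.54 ± 0.07 (adjusted p = 3.59e-08), or 0.49 ± 0.07 without replicate 6. Of the PeBoW complex, Pes1 rose by 0.41 ± 0.07 (adjusted p = 2.26e-05; 0.30 ± 0.06 without replicate 6), while Bop1 was at 0.30 ± 0.14 (adjusted p = 0.106) and Wdr12 at 0.21 ± 0.14 (adjusted p = 0.313). Nop16 rose by 0.38 ± 0.09 (0.34 ± 0.09 without replicate 6). Nop2, a methyltransferase of the large subunit RNA, rose by 0.46 ± 0.16 and was not called without replicate 6 (0.32 ± 0.16, adjusted p = 0.155). Rrs1 was at 0.47 ± 0.18 (adjusted p = 0.0528). Over all roles, 10 members had DKO groups that did not overlap at day 8 with leucine-free higher, which held for 5.32% of all tested genes. The number was also 10 without replicate 6, but leaving out a leucine-free liver could not lower it.

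The same comparison in WT livers at day 8 gave fewer calls. There 4 of the 35 members rose and none fell, against 2.38% of all tested genes rising and 2.87% falling; the median log2 fold change was 0.15. One member, Rrn3, had an unadjusted p under 0.05 in the falling direction, and DESeq2 called 4 higher and 0 lower. The risers were Npm1 (0.41 ± 0.11, adjusted p = 0.0147), Polr1a (0.35 ± 0.11, adjusted p = 0.0468), Ncl (0.34 ± 0.10, adjusted p = 0.0359) and Rrp1 (0.32 ± 0.07, adjusted p = 0.00363), and all 4 also rose in DKO livers. WT control livers had 132, 130, 115, 127 and 112 CPM of Npm1, and WT leucine-free livers ran from 153 through a median of 159 to 182 CPM, with no overlap. Ncl (136 to 176 against 198 to 218 CPM) and Rrp1 (64.9 to 90.9 against 94.7 to 106 CPM) did not overlap either, a pattern shared by 3.10% of all tested genes. Nhp2 was at -0.07 ± 0.18 and Rrp12 at 0.18 ± 0.26 in WT livers. The count of 4 was 1 without WT control replicate 3 or 5, and 2 without WT control replicate 4 or WT leucine-free replicate 1, 2, 4, 5 or 6. Rises over the whole table also fell when a library was left out, from 402 to between 249 and 336.

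The difference between the genotypes' food responses at day 8 was tested as an interaction. The DKO estimate was above the WT estimate for 34 of the 35 members, with a median difference of 0.31 on the log2 scale, but no member was called, and 0.0414% of all tested genes were. At an unadjusted p under 0.05 edgeR counted 10 members, against 1506 of the 16908 genes tested, and DESeq2 called 0. Nhp2 had the largest estimate of the 10 at 0.85 ± 0.25 (SE, adjusted p = 0.158), followed by Rrp12 at 0.80 ± 0.36 (adjusted p = 0.512). Npm1 was at 0.47 ± 0.15 (adjusted p = 0.222) and Pes1 at 0.31 ± 0.10 (adjusted p = 0.248). Without DKO leucine-free replicate 6 the median difference was 0.19, 34 members were again above the WT estimate, none was called, and 4 had an unadjusted p under 0.05. Nhp2 was then at 0.33 ± 0.14 (adjusted p = 0.573), Rrp12 at 0.59 ± 0.36, Npm1 at 0.35 ± 0.14 and Pes1 at 0.20 ± 0.09. A difference in response between WT and DKO livers was therefore not shown for any single member.

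**Figure D4:**
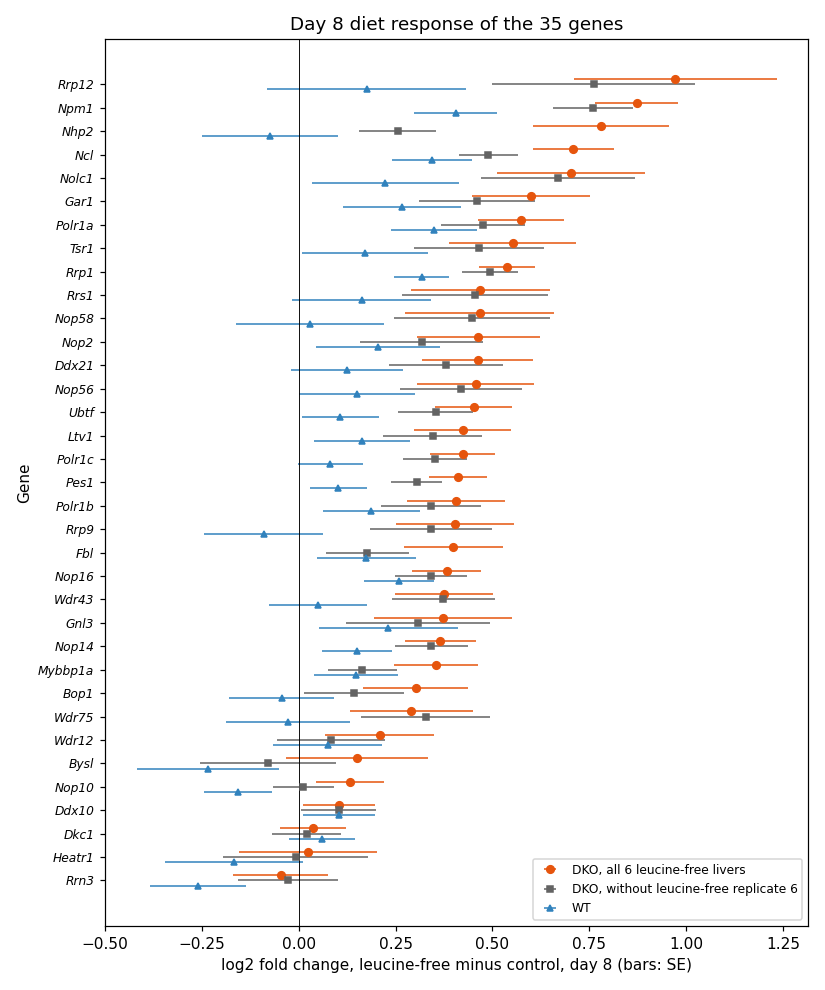
Log2 fold change with its SE (x axis) of leucine-free against control food at day 8 for each of the 35 genes (y axis, ordered by the DKO value), in DKO livers with all 6 leucine-free livers (circles), in DKO livers without replicate 6 (squares) and in WT livers (triangles). Leaving out replicate 6 takes Nhp2 from 0.78 to 0.26 and Npm1 from 0.87 to 0.76, and 34 of the 35 circles lie to the right of their triangle.

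DKO and WT livers were also compared directly. On control food at day 8, 33 of the 35 members had an estimate below 0 in DKO livers, with a median of -0.19, and none was called in edgeR, where 0.0532% of all tested genes were. Of the 35, 9 had an unadjusted p under 0.05, all in the direction of lower DKO levels, and DESeq2 called 0. In either direction, 1080 of the 16908 genes tested had such a p in edgeR. Rrp12 had 10.1, 10.9, 9.44, 10.4 and 7.57 CPM in WT and, as above, 4.74 to 7.51 CPM in DKO control livers, and the difference was -0.67 ± 0.27 on the log2 scale (adjusted p = 0.675). Nolc1 was at -0.47 ± 0.20, Bysl at -0.44 ± 0.19 and Nop56 at -0.37 ± 0.16, with adjusted p of 0.691, 0.693 and 0.691. Nhp2, Rrp12, Tsr1 and Bysl had groups that did not overlap, with DKO lower, as did 0.958% of all tested genes. On leucine-free food at day 8, 2 members had higher levels in DKO than in WT livers and 0 had lower ones, against 1.44% and 0.621% of all tested genes; no member had an unadjusted p under 0.05 in the lower direction, and DESeq2 called 4 higher and 0 lower. Npm1 differed by 0.51 ± 0.10 (adjusted p = 0.00204) and Nhp2 by 0.67 ± 0.17 (adjusted p = 0.0190). Without replicate 6 Nhp2 was at 0.14 (adjusted p = 0.572) and Npm1 at 0.40 (adjusted p = 0.0229). In a fit to only the groups compared, neither was called. The count was 4 without DKO leucine-free replicate 4 or 5, where 281 and 316 genes were higher over the whole table, against 244 with all livers.

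At day 1 few members were called, and in both directions. In WT livers 1 member rose and 3 fell after a day without leucine, against 8.28% and 11.2% of all tested genes, with a median of -0.03. In DKO livers 3 rose and 1 fell, against 10.5% and 13.0%, with a median of -0.00. Both shares were near or below the background in each direction. Npm1 rose in both genotypes. It ran from 107 through 118 to 127 CPM in WT controls and from 128 through 195 to 230 CPM in WT leucine-free livers, without overlap, a state that 0.775% of all tested genes shared. In DKO livers Npm1 ran from 98.3 through 116 to 141 CPM on control and from 117 through 154 to 190 CPM on leucine-free food, with overlap. The log2 fold changes of Npm1 were 0.66 ± 0.09 (adjusted p = 1.46e-08) in WT and 0.40 ± 0.08 (adjusted p = 3.02e-05) in DKO livers, and their difference was not called (-0.26 ± 0.11, adjusted p = 0.731).

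Nhp2 fell at day 1 in both genotypes, by 0.46 ± 0.14 in WT (adjusted p = 0.00970) and by 0.36 ± 0.12 in DKO livers (adjusted p = 0.0233). Its WT controls ran from 18.3 through 22.3 to 26.9 CPM and its WT leucine-free livers from 13.2 through 15.6 to 20.9 CPM. Bysl, a late small subunit factor, fell by 0.51 ± 0.14 in WT livers (adjusted p = 0.00590), from 16.1, 21.4 and 26.5 CPM (lowest, median and highest) to 9.68, 14.3 and 24.5 CPM, and Ltv1 fell by 0.27 ± 0.10 (adjusted p = 0.0433). In DKO livers Ubtf rose by 0.24 ± 0.07 (adjusted p = 0.00777) and Polr1a by 0.21 ± 0.08 (adjusted p = 0.0346). No member was called in the interaction at day 1, where 0.373% of all tested genes were, and DESeq2 called 0. At an unadjusted p under 0.05 edgeR counted 1 member, against 974 of the 16908 genes tested.

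Between the genotypes at day 1, no member was called on control food, where 0.881% of all tested genes were, and DESeq2 called 0. There edgeR gave an unadjusted p under 0.05 for 1 member, against 891 of the 16908 genes tested. On leucine-free food 2 members were higher and 1 lower in DKO livers, against 1.87% and 1.83% of all tested genes. Heatr1 ran from 16.3 through 21.7 to 36.5 CPM in 12 WT and from 17.4 through 30.0 to 45.1 CPM in 18 DKO livers, and was higher in DKO by 0.44 ± 0.11 on the log2 scale (adjusted p = 0.0163). Ltv1 was higher by 0.27 ± 0.08 (adjusted p = 0.0355), and Npm1 was lower at -0.28 ± 0.07 (adjusted p = 0.00975). The ranges overlapped for all 3. In a fit to only these groups, neither rise was called.

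Whether the response to food changed from day 1 to day 8 was tested within each genotype. In DKO livers the day 8 response was above the day 1 response for all 35 members, and 12 were called, all higher at day 8, against 5.29% of all tested genes higher and 3.55% lower; no member had an unadjusted p under 0.05 in the lower direction, and DESeq2 called 13 higher and 0 lower. The largest were Nhp2 at 1.14 ± 0.21 (SE, adjusted p = 0.000224), which had fallen by 0.36 at day 1 and was at 0.78 at day 8, Rrp12 at 1.06 ± 0.31 (adjusted p = 0.0220) and Gar1 at 0.64 ± 0.18 (adjusted p = 0.0186). The others were Ncl, Rrp9, Ltv1, Mybbp1a, Nop14, Npm1, Rrp1, Pes1 and Polr1c, at 0.62 to 0.38. The same 5 DKO controls of day 8, the group of lowest mean level (-0.29), enter several comparisons. These are this one, the DKO food response at day 8, the interaction at day 8 and genotype on control food at day 8. Their counts of members by direction are therefore not independent of each other, and were not made over all tested genes. Without replicate 6 of the day 8 leucine-free group 6 members were called, all higher at day 8, against 3.64% of all tested genes higher. Nhp2 was then at 0.61 (adjusted p = 0.000458). In WT livers the day 8 response was above the day 1 response for 31 of 35. None was called in edgeR, where 1.64% of all tested genes were, and DESeq2 called 0. An unadjusted p under 0.05 in edgeR was found for 4 members, against 2718 of the 16908 genes tested. The largest WT estimates of these 4 were Ltv1 at 0.43 ± 0.16 (adjusted p = 0.143) and Gar1 at 0.41 ± 0.19 (adjusted p = 0.272).

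The wider pathway was examined with a list of 139 other ribosome biogenesis genes, of which 138 were tested. In DKO livers at day 8, 61 of them rose (44.2%, against 11.1% of all tested genes) and 1 fell, with a median of 0.28. Without replicate 6 of the leucine-free group 45 rose and 1 fell, against 9.89% of all tested genes rising, and the median was 0.23. The 61 that rose with all livers held 6 of 16 other genes of the RNA polymerase I machinery. They also held 18 of 43 small subunit factors and 28 of 56 large subunit factors. The rest were 4 of 10 assembly factors of small nucleolar ribonucleoproteins and 5 of 13 exosome genes. Wdr46, a small subunit processome component, rose by 0.63 ± 0.09 (adjusted p = 9.81e-08), Imp3, of the same pathway, by 0.50 ± 0.10 (adjusted p = 7.65e-05), Polr2e, a subunit shared by the RNA polymerases, by 0.48 ± 0.09 (adjusted p = 7.58e-05), Cd3eap, a polymerase I subunit, by 0.59 ± 0.13, and Exosc5, of the RNA-degrading exosome, by 0.71 ± 0.14 (adjusted p = 8.68e-05). Utp6 was the 1 that fell, at -0.22 ± 0.08 (adjusted p = 0.0386). In WT livers at day 8, 8 rose (5.80%, against 2.38% of all tested genes) and 1 fell. At day 1, 5 rose and 17 fell in WT livers, or 3.62% and 12.3% against 8.28% and 11.2% of all tested genes. In DKO livers 9 rose and 14 fell at day 1, or 6.52% and 10.1% against 10.5% and 13.0%. The shares of the whole list at day 1 were thus near or below those of all genes. The exosome genes within it were above that background: 4 of the 13 (30.8%) fell in WT and 6 (46.2%) in DKO livers, against 11.2% and 13.0%. Exosc9 fell by 0.62 ± 0.12 in WT and Exosc8 by 0.53 ± 0.07 in DKO livers. The food response was higher at day 8 than at day 1 for 32 of these 138 genes in DKO livers (23.2%, against 5.29% of all tested genes), and for 20 without replicate 6 (against 3.64%).

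Myc drives transcription of ribosome biogenesis genes, and Max partners of the Mxd family oppose it, so 11 genes of this network were examined. Myc itself was not called in any comparison. Its DKO control livers at day 8 had 2.02, 2.99, 5.15, 2.37 and 3.75 CPM and its leucine-free livers ran from 3.68 through a median of 4.48 to 16.7 CPM, a log2 fold change of 1.19 ± 0.47 (adjusted p = 0.0610). The highest Myc value of that group was again replicate 6, without which the log2 fold change was 0.78 ± 0.47 (adjusted p = 0.255). At day 1, 1 of the 11 rose and 3 fell in each genotype, and at day 8, 1 rose and 1 fell. Mxi1, a Max partner that represses, rose in all 4 food comparisons, by 0.50 ± 0.09 (WT) and 0.29 ± 0.08 (DKO) at day 1 and by 0.43 ± 0.12 (WT) and 0.45 ± 0.11 (DKO) at day 8. Mycn fell at day 1, by 1.73 ± 0.36 in WT and by 1.21 ± 0.34 in DKO livers. Mxd3, a repressing Max partner, fell at day 1 by 1.49 ± 0.54 (adjusted p = 0.0392) in WT and by 3.83 ± 0.34 (adjusted p = 1.35e-17) in DKO livers, and on control food at day 1 it was higher in DKO than in WT livers by 2.13 ± 0.36 (adjusted p = 7.93e-06). Mlx, which partners some of the same proteins, also fell at day 1, by 0.49 ± 0.11 in WT and by 0.30 ± 0.10 in DKO livers. At day 8 the one that fell was Mxd4, by 0.30 ± 0.08 in WT and by 0.26 ± 0.08 in DKO livers.

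Other measures were compared between the groups, first for food at day 8. Markers of 8 cell types were counted, against 2.87% of all tested genes falling in WT and 9.51% in DKO livers; no marker rose in either genotype at that day. Of 8 macrophage markers 4 fell in WT and 7 in DKO livers. The 1 macrophage marker not called in DKO livers went the other way, with a log2 fold change of 1.21. The summed level of the list was 484 to 634 CPM in WT controls and 201 to 432 CPM in WT leucine-free livers, and 538 to 686 against 127 to 551 CPM in DKO livers. Of 6 erythroid markers tested, 1 fell in WT and 3 in DKO livers, with a summed level of 110 to 235 CPM in DKO controls and 34.4 to 163 CPM in DKO leucine-free livers. Of 8 hepatocyte markers, 0 changed in WT livers and 1 fell in DKO livers, and no marker of these 3 lists was at 0 in a group. In WT livers 2 of 8 lymphocyte, 1 of 5 neutrophil, 1 of 7 stellate, 0 of 7 endothelial and 0 of 6 cholangiocyte markers fell. In DKO livers 2 of 6 cholangiocyte and 1 of 7 stellate markers fell, and no lymphocyte, neutrophil or endothelial marker did. Without replicate 6 the DKO falls were 7 macrophage, 3 stellate, 2 erythroid, 1 hepatocyte and 0 cholangiocyte markers, and 1 hepatocyte marker rose. At day 1 no macrophage, lymphocyte or neutrophil marker was called. In WT livers at day 1, 1 hepatocyte and 1 stellate marker rose, and 2 hepatocyte, 2 cholangiocyte and 1 erythroid marker fell. In DKO livers at day 1, 2 hepatocyte, 1 endothelial and 1 stellate marker rose, and 2 hepatocyte, 2 stellate and 3 erythroid markers fell. In bulk liver, fewer cells of a type and less RNA per cell cannot be told apart. Dbp, a clock output gene that swings over the day, was chosen after its values were seen. At day 8 it had 0.871 to 52.0 CPM in WT and 1.25 to 18.1 CPM in DKO controls. Leucine-free livers of day 8 had 0.512 to 1.59 (WT) and 1.46 to 2.92 CPM (DKO). In edgeR its fall at day 8 was called in WT (adjusted p = 0.0281) but not in DKO livers (adjusted p = 0.128). At day 1 its fall was called in DKO (-1.81, adjusted p = 0.0260) but not in WT livers (adjusted p = 0.552). On leucine-free food at day 1 Dbp was lower in DKO than in WT livers (-1.93, adjusted p = 0.0391). The hour of collection is not given in the labels. The part of these measures in the results was not tested. Exons of 15 of the 35 members overlap exons of a gene on the opposite strand (Nop56 and Idh3b, Tsr1 and Srr, Heatr1 and Lgals8, for example), and since the labels do not say whether strand was used in counting, their counts are uncertain; 14 of the 23 members that rose in DKO livers at day 8 have no such overlap. The counts of Npm1 are uncertain for a different reason: processed pseudogenes of it are known, and their part in its counts was not examined.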

How the data were processed

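The 67 liver libraries were deposited as raw counts, 1 whole number per Ensembl gene, and the authors' count files were used without rescaling. Per the labels' protocols, liver RNA (miRNeasy kit) was made into directional libraries with the NEBNext UltraII kit. The tools listed in the submitters' processing notes are DESeq2 1.26.0, featureCounts 2.0.1 and STAR 2.7.1a, with mm10 and GRCm38 as builds; no strand setting is named there. A whole-series count table holds the same values and was not used.

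After TMM scaling, counts were tested in edgeR 4.0.16 under R 4.3.3 (quasi-likelihood test, robust estimation, expression filter by group) in 1 fit of 8 group terms to 67 libraries. The filter left 16908 genes to test and removed 38542. Calls were made in 12 comparisons at 0.05 on the Benjamini-Hochberg adjusted p over all tested genes. Each library is 1 mouse, so errors cover the mice sampled. Fold changes are log2 with standard errors (SE). Counts without molecular identifiers are not independent molecules.

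Any of the 35 members could be named. The rule for full values took, per comparison, up to 3 called members of the largest rise and up to 3 of the largest fall, and, of other lists, the 2 called genes with the smallest adjusted p; others are named beside them for their role. The members and lists were chosen with earlier results of these data known. The alternatives were DESeq2 1.42.0, its size factors in edgeR, total counts, no expression filter, the mouse number as a block, only the groups compared, leaving out 3 libraries of high residual (over 3 median absolute deviations above the median: of day 1, WT leucine-free replicates 11 and 12; of day 8, replicate 6 of DKO leucine-free livers), each day 8 library left out in turn and, added after seeing the data, the older edgeR method and, for the other lists, the mean level and the overlap of groups, DKO leucine-free livers of day 8 without replicate 6.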

Additional observations from a re-analysis of the deposited data

Results flagged for a closer look

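Of 210 sets of values (a member in a group of 4 to 10 livers), 23 had a highest or lowest liver whose gap to the next was large for the range of its group by Dixon's 95% criterion; chance alone flags about 1 in 20 sets. DKO leucine-free replicate 6 of day 8 was the highest liver in 10 of the 23: Polr1a at 48.0 CPM, Ncl at 451 CPM, Mybbp1a at 130 CPM, Fbl at 56.9 CPM, Nhp2 at 68.7 CPM, Nop10 at 44.9 CPM, Bysl at 25.1 CPM, Nop2 at 31.0 CPM, Bop1 at 48.4 CPM and Pes1 at 65.4 CPM. Replicate 5 of the same group was highest for Rrn3 (20.9 CPM), Wdr43 (32.5 CPM) and Wdr75 (20.3 CPM). At day 8, WT control replicate 5 was lowest for Ncl (136 CPM) and Pes1 (35.6 CPM) and highest for Dkc1 (18.9 CPM), and DKO control replicate 3 was highest for Wdr75 (15.4 CPM). At day 1, WT control replicate 6 was lowest for Ncl (161 CPM) and replicate 3 highest for Mybbp1a (86.4 CPM). DKO control replicate 7 of day 1 was highest for Nop58 (39.1 CPM) and Wdr43 (30.6 CPM), and replicate 5 lowest for Dkc1 (12.4 CPM) and Rrp9 (6.04 CPM).

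The response to leucine-free food in DKO livers differed between day 8 and day 1 for 12 members in edgeR's test of that difference, each higher at day 8: Nhp2 by 1.14, Rrp12 by 1.06, Gar1 by 0.64, Ncl by 0.62, Rrp9 by 0.57, Ltv1 by 0.51, Mybbp1a by 0.50, Nop14 by 0.48, Npm1 by 0.47, Rrp1 by 0.44, Pes1 by 0.43 and Polr1c by 0.38 on the log2 scale. The part of DKO leucine-free replicate 6 in these values is given with the count of 6 members called without it.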

How the results depend on the processing

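The rise of 23 members in DKO livers at day 8 ranged from 19 to 24 over the other alternatives, and from 15 to 24 when each day 8 library was left out in turn. The 12 members whose DKO response was higher at day 8 than at day 1 became 7 without the libraries of high residual and 6 to 14 when 1 library was left out. The whole table then had 606 to 1006 such genes, against 894. Smaller counts moved more. For food in WT livers at day 8 the 4 rises were 2 with total counts and 2 with no expression filter, and 1 to 4 when 1 library was left out. Rises over the whole table were 249 to 336 with 1 library left out, against 402. For food in WT livers at day 1 the single rise became 2 with only the groups compared and 2 without the libraries of high residual. For food in DKO livers at day 1 the 3 rises became 1 with the block, and the single fall became 2 with total counts, 2 without the libraries of high residual, 0 with no expression filter and 0 with the block. For genotype on leucine-free food at day 1 the 2 members higher in DKO livers became 1 with no expression filter, 1 with the block, 0 with only the groups compared and 6 without the libraries of high residual, and the 1 member lower became 3 with DESeq2, 2 with DESeq2 size factors and 3 without the libraries of high residual. For genotype on leucine-free food at day 8 the 2 higher members became 4 with DESeq2, 4 with DESeq2 size factors, 4 with total counts, 1 with the block, 0 with only the groups compared and 1 without the libraries of high residual, and 1 to 4 when 1 library was left out. With 1 library left out, 108 to 362 genes of the whole table were higher in that comparison, against 244. The cause of these moves was not tested. Of the named members' called values, 25 lost their call and 151 kept it over these alternatives, 26 lost it and 97 kept it when 1 library was left out, and none changed sign. Mouse numbers gave no general pairing of the livers. Over 168 same-numbered pairs the correlation of deviations ran from -0.31 to 0.26 with a median of 0.013, and 26 pairs were over 0.1. Between WT and DKO leucine-free livers of day 1, replicates 6 to 10 had 0.14 to 0.24 and replicate 12 had -0.17. The labels do not say whether same-numbered livers share anything, and a shared batch was not tested. With the replicate block, 22 members rose in DKO livers at day 8 and 9 were higher at day 8 than at day 1. The groups of 5 and 6 livers at day 8 limit precision.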
